A study of Homo sapiens with 6 samples.

Results

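Restriction factors are host proteins that block a step of virus multiplication inside the cell, and 10 of them were followed here in colon cancer cells exposed to a cocoa extract. The set comprised SAMD9, SAMD9L, SAMHD1, SLFN5, SLFN11, SLFN12, BST2, RSAD2, ISG20 and XAF1. A probe set, a group of short probes that together give 1 value on the array, was kept when the platform annotation gave it exactly 1 of these symbols. All 10 genes were found, with 27 probe sets, among 19775 genes and 54613 probe sets in all. The cells were HT29, an established line from a human colorectal adenocarcinoma, plated at 300000 cells and grown in F12 medium with 7% serum. On the next day 3 cultures received 500 µg of a polyphenolic cocoa extract (volume not stated) and 3 control cultures received saline, although the sample titles call the controls untreated. RNA was taken after 24 h and each of the 6 cultures was read on its own Affymetrix array, 3 per group. Nothing in the labels says that the cultures were grown on separate days, so a p-value reflects the spread among these cultures alone, and the number of arrays limits the precision.

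Most of these genes are switched on by interferons, cytokines that bind a cell surface receptor and act through JAK kinases and STAT and IRF transcription factors on a DNA element called the interferon-stimulated response element (ISRE). Their products attack different steps: some cut or starve viral nucleic acids, some stop protein synthesis, and some hold particles at the cell surface. Gut epithelial cells carry receptors for type I and type III interferons. HT29 is a line of 1 cell type, and the deposited values cannot test its identity because they hold no levels.

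The values are on the log2 scale, and from each probe set's values its own median over the arrays had been subtracted. They give differences between arrays, with 0 as the middle of the 6, and no expression level. A gene's value is the mean of its probe sets, a log2 difference is the cocoa mean minus the control mean, and a gene is said to have risen or fallen where its Benjamini-Hochberg adjusted p over all genes in limma was below 0.05.

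Of the 10 restriction factors 8 rose with cocoa, 0 fell and 2 did not pass. Over all 19775 genes 13.5% passed in either direction and 7.36% passed as higher and 6.12% as lower. The 8 were XAF1, RSAD2, SAMD9L, SLFN5, SAMD9, BST2, SAMHD1 and ISG20, in order of their difference, and the other two were the Schlafen genes SLFN11 and SLFN12. The median log2 difference was 0.91 over the 10 genes and −0.013 over all genes. All 8 rose at least 1.5-fold, a size reached by 365 genes in all, and 5 of them rose at least 2-fold, a size reached by 97. In the same 8 genes every cocoa array lay above every control array, which held for 15.4% of all genes (32.5% had no overlap in either direction). Since RNA of whole cultures was read, more responding cells and more RNA per cell cannot be told apart. The 8 calls were kept in each of 16 alternative fits, among them the 6 that left out 1 array.

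**Figure D1:**
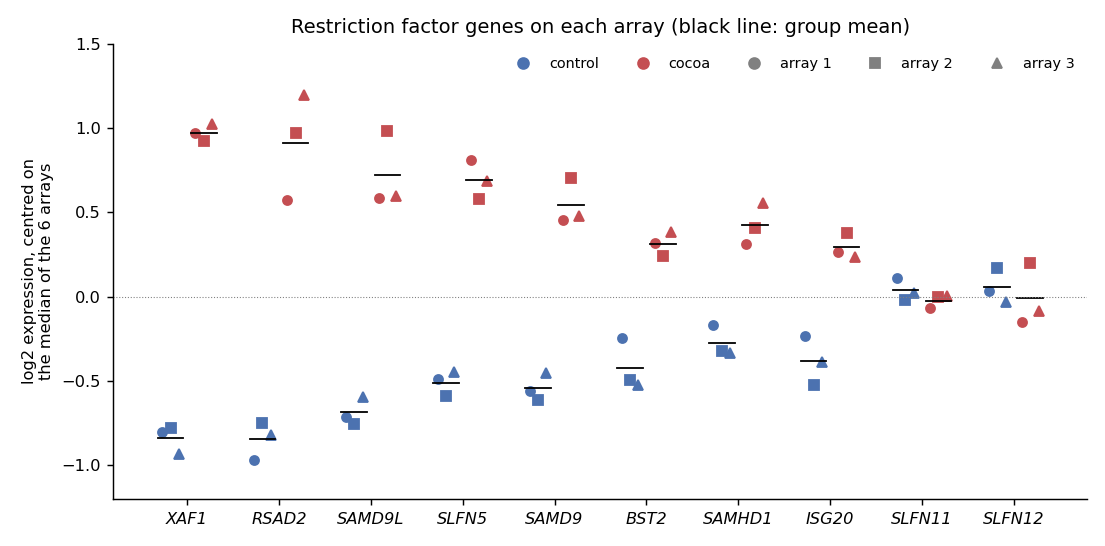
Values of the 10 restriction factor genes on each array. The vertical axis is log2 expression centred on the median of the 6 arrays, blue points are control arrays, red points cocoa arrays, shapes the array number, and black lines group means. In 8 genes all red points lie above all blue ones, and in SLFN11 and SLFN12 they overlap around 0.

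**Figure D2:**
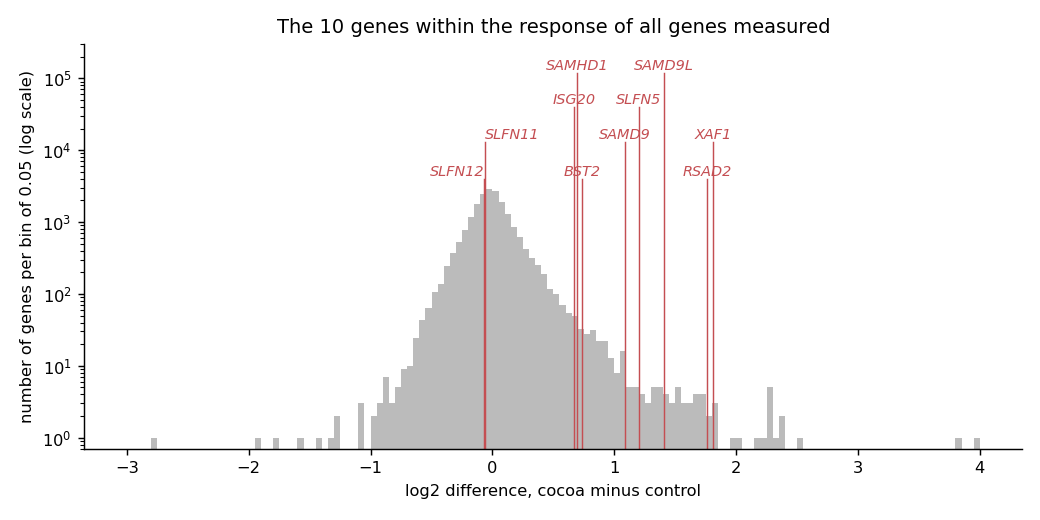
Distribution of the log2 difference (cocoa minus control, horizontal axis) over all 19775 genes, as the number of genes per bin on a log scale, with the 10 restriction factors as red lines. SLFN11 and SLFN12 stand at the centre of the distribution, and the other 8 stand in its upper tail between 0.67 and 1.81.

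The stretch of DNA before the start of each gene was read from RefSeq (build GRCh38.p14) to see whether the responders carry the ISRE letters found in many interferon-induced genes. Promoters were listed for 9 of the 10 genes, all but SLFN5, in 11 windows, with 2 windows each for RSAD2 and XAF1. The core motif, the letters GAAA, then any 2 bases, then GAAA again, searched on both strands in the 250 bases before the start, was present in 4 of the 11 windows, those of SAMD9, BST2, ISG20 and 1 of RSAD2, and in 3.02% of the 35116 promoters listed for all genes. The 4 windows are shown because they are all that held the core motif, and each belongs to a gene that rose. Each is given as 60 bases on the strand of the gene, with the motif in capitals.
SAMD9 (chr7:93118081-93118140, minus strand): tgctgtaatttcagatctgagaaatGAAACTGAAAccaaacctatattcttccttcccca
BST2 (chr19:17405723-17405782, minus strand): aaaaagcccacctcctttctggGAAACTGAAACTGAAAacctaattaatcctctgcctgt
ISG20 (chr15:88638922-88638981, plus strand): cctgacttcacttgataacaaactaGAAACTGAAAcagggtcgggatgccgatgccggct
RSAD2 (chr2:6877607-6877666, plus strand): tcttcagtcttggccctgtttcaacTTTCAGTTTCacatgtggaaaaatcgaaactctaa
In SAMD9, BST2 and ISG20 the matched letters were the same, GAAACTGAAA, and in BST2 2 copies overlapped. In RSAD2 they stood on the opposite strand. The motif began 136 bases before the start in SAMD9, 130 in BST2, 69 in ISG20 and 145 in RSAD2.

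A relaxed form without the first letter, AAANNGAAA, which every full match also contains, was searched after the windows had been seen. It was present in 7 of the 11 windows and in 9.2% of all promoters. The 3 additional windows are shown because they are all that held only the relaxed form. They belong to SAMD9L and XAF1, which rose, and to SLFN12, which did not pass.
SAMD9L (chr7:93148398-93148457, minus strand): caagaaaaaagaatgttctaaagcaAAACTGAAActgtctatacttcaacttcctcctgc
XAF1 (chr17:6755986-6756045, plus strand): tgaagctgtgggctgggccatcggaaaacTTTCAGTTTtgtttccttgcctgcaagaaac
SLFN12 (chr17:35433175-35433234, minus strand): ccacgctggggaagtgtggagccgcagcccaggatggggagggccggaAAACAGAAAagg
The SAMHD1 window held neither form although SAMHD1 rose. The other window of XAF1 and the other window of RSAD2 also held neither form. The SLFN11 window held neither form and had 1 match to TTCNNNGAA, the letters of the gamma-activated site bound by STAT dimers, which 6.57% of all promoters contain and which the BST2 window held at 2 places, 1 of them overlapping its core match. A match says that the letters are there and not that a factor binds them, and a window without a match says only that these letters are not in it.

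SAMD9 and SAMD9L are neighbouring, related genes for large cytosolic proteins that shut down translation during poxvirus infection and restrain cell growth. SAMD9 read −0.56, −0.62 and −0.45 on control arrays 1 to 3 and 0.46, 0.70 and 0.48 on cocoa arrays 1 to 3. It rose 2.13-fold (log2 difference 1.09, SE 0.085, limma adjusted p = 9.52e-05, n = 3 arrays per group). Its 2 probe sets read nearly alike, 1.05 and 1.12. SAMD9L read −0.71, −0.75 and −0.59 on the controls and 0.59, 0.99 and 0.60 with cocoa. It rose 2.66-fold (log2 difference 1.41, SE 0.11, limma adjusted p = 9.49e-05). In both genes the groups were far apart and cocoa array 2 was the highest.

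The 3 probe sets of SAMD9L rose by unequal amounts, 1.98 for 226603_at, 1.36 for 230036_at and 0.89 for 235643_at on the log2 scale. The difference of the 2 genes within each array, SAMD9 minus SAMD9L, was between 0.14 and 0.15 on the controls and between −0.28 and −0.12 with cocoa. SAMD9L therefore moved more by 0.32 on the log2 scale, with no overlap of the groups (exact two-sided permutation test, p = 0.10, adjusted over 4 pairs 0.133). With 3 arrays against 3, 0.10 is the smallest p this test can give. The probe sets of SAMD9 lie within the range of those of SAMD9L, so that the order of the 2 genes depends on which probe sets are read.

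Schlafen proteins are a family encoded side by side in the genome. SLFN5 is a nuclear member that silences viral transcription, SLFN11 cleaves transfer RNAs and sensitises cells to DNA damage, and SLFN12 is an RNase that certain phosphodiesterase ligands activate. SLFN5 read −0.49, −0.59 and −0.45 on the controls and 0.81, 0.58 and 0.69 with cocoa. It rose 2.30-fold (log2 difference 1.20, SE 0.079, limma adjusted p = 4e-05).

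SLFN11 read 0.11, −0.021 and 0.025 on the controls and −0.070, −0.0032 and 0.0032 with cocoa, so that the groups overlapped. Its log2 difference was −0.061 (95% interval −0.21 to 0.087, limma adjusted p = 0.631). SLFN12 read 0.034, 0.17 and −0.034 on the controls and −0.15, 0.20 and −0.082 with cocoa, again with overlap. Its log2 difference was −0.066 (95% interval −0.29 to 0.16, limma adjusted p = 0.753). As a ratio of cocoa to control, the intervals run from 0.87 to 1.06 for SLFN11 and from 0.82 to 1.12 for SLFN12. Each of these genes rests on 1 probe set, and without levels the table cannot show whether either transcript was present in the cells.

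Within each array SLFN5 minus SLFN11 differed between the groups by 1.26 on the log2 scale and SLFN5 minus SLFN12 by 1.27. In both pairs the groups did not overlap (exact two-sided permutation test, p = 0.10 each, the smallest possible, adjusted 0.133). SLFN11 minus SLFN12 differed by 0.0047 with overlap (exact permutation p = 0.80). The sign of that last value turned when control array 2, cocoa array 1 or cocoa array 3 was left out.

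All 6 probe sets of SLFN5 rose, in a larger and a smaller group. The probe sets 226725_at, 230383_x_at and 238430_x_at rose by 1.62, 1.74 and 1.69 on the log2 scale. The probe sets 1553055_a_at, 243999_at and 1557078_at rose by 0.80, 0.70 and 0.66. The smaller group read 0.85, 0.79 and 0.72 on cocoa array 1, 0.20, 0.19 and 0.15 on cocoa array 2, and 0.59, 0.51 and 0.55 on cocoa array 3. Cocoa array 2 was thus the lowest of the cocoa arrays in these 3 probe sets, whereas it was the highest in 226725_at, at 1.19. The calls of the smaller group were lost without control array 1, control array 2 or cocoa array 3, and for 243999_at and 1557078_at also without control array 3, with limma adjusted p up to 0.0639, 0.0813 and 0.0841 in that order. The suffixes _a, _s and _x mark probe sets that may match several transcripts, and without them the SLFN5 difference was 0.99.

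SAMHD1 breaks down deoxynucleotides and so starves reverse-transcribing viruses of building blocks. As a gene it read −0.17, −0.32 and −0.33 on the controls and 0.31, 0.41 and 0.56 with cocoa, without overlap. It rose 1.62-fold (log2 difference 0.70, SE 0.083, limma adjusted p = 0.000953). This mean joins 6 probe sets that spread widely. The probe sets 234987_at, 235964_x_at and 235529_x_at rose by 1.22, 1.01 and 1.00. The probe set 204502_at rose by 0.45 with an adjusted p over probe sets of 0.0483, which was above 0.05 in 10 of 14 alternative fits, among them each fit without 1 array other than that without cocoa array 2 (0.0284 to 0.152). The remaining pair, 1559883_s_at (0.42, adjusted p = 0.288) and 1559882_at (0.092, adjusted p = 0.606), did not pass and their groups overlapped. In 1559883_s_at cocoa array 2 read −0.17 while cocoa arrays 1 and 3 read 0.54 and 0.71. Without the suffixed probe sets the SAMHD1 difference was 0.59.

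BST2, also called tetherin, ties budding virus particles to the cell surface. It read −0.24, −0.49 and −0.53 on the controls and 0.32, 0.24 and 0.38 with cocoa, on a single probe set. It rose 1.66-fold (log2 difference 0.73, SE 0.087, limma adjusted p = 0.000967). Control array 1 was the highest control and cocoa array 2 the lowest cocoa array, and a gap of 0.48 remained between the groups.

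RSAD2, or viperin, is a radical SAM enzyme that makes a chain-terminating nucleotide. It read −0.97, −0.75 and −0.82 on the controls and 0.58, 0.97 and 1.20 with cocoa, the widest spread among cocoa arrays of the 10 genes. It rose 3.39-fold (log2 difference 1.76, SE 0.14, limma adjusted p = 0.000111). Its 2 probe sets rose by 1.60 and 1.92. ISG20, an RNA exonuclease, read −0.23, −0.52 and −0.39 on the controls and 0.26, 0.38 and 0.24 with cocoa. It rose 1.59-fold (log2 difference 0.67, SE 0.085, limma adjusted p = 0.00134), with 0.75 and 0.60 in its 2 probe sets.

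XAF1 binds the apoptosis inhibitor XIAP and favours cell death. It read −0.80, −0.78 and −0.93 on the controls and 0.97, 0.92 and 1.03 with cocoa, with the largest difference of the 10 genes. As a mean of 3 probe sets it had a narrow spread within groups. It rose 3.51-fold (log2 difference 1.81, SE 0.069, limma adjusted p = 2.9e-06) and stood at rank 17 of all genes by difference, with RSAD2 at rank 20. Its probe sets differed strongly, and each spread more widely within groups than their mean (SE from 0.13 to 0.14, against 0.069). On cocoa arrays 1 to 3, 228617_at read 1.27, 1.59 and 1.74, and 206133_at read 1.18, 0.72 and 1.19. On the same arrays 242234_at read 0.47, 0.46 and 0.15, so the order of the arrays differed between probe sets. The probe set 228617_at rose 7.40-fold (log2 difference 2.89), 206133_at rose by 1.89, and 242234_at rose by 0.66 with an adjusted p over probe sets of 0.0222, which was above 0.05 in 8 of 14 alternative fits, among them each fit without 1 array other than that without cocoa array 3 (0.0273 to 0.0675).

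**Figure D3:**
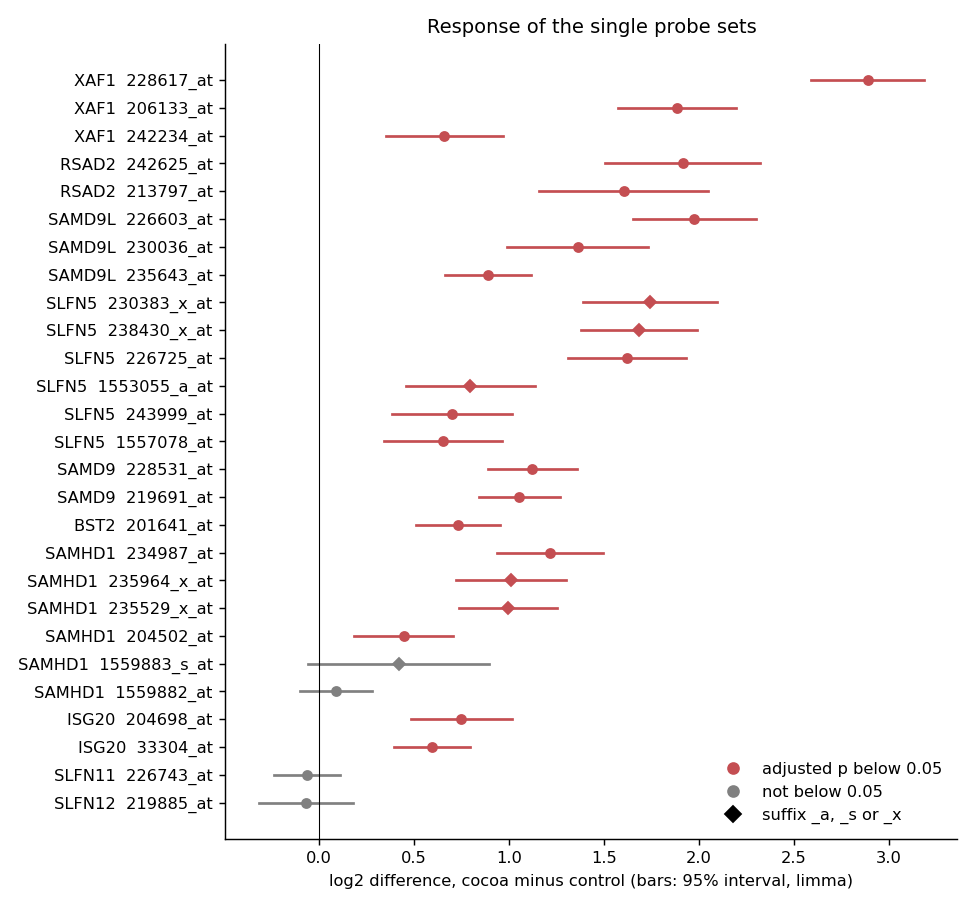
Log2 difference (cocoa minus control, horizontal axis) of each of the 27 probe sets with its 95% interval from limma, grouped by gene. Red marks an adjusted p below 0.05 over all probe sets, and diamonds mark suffixes for possible matches to several transcripts. Probe sets of SAMHD1, SLFN5, SAMD9L and XAF1 spread widely around their gene's mean.

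Of the 27 probe sets 23 rose and 4 did not pass, against 7.98% of all 54613 probe sets passing in either direction and 4.68% passing as higher. The 4 were both of the Schlafen genes SLFN11 and SLFN12 and the last pair of SAMHD1. The same 23 probe sets had cocoa arrays all above the controls, which held for 12.9% of all probe sets (27.6% had no overlap in either direction). In a fit without moderated variances 7 probe sets of the 27 passed, against 1004 of all 54613. These 7 were the 2 of SAMD9, 226603_at of SAMD9L, 226725_at and 238430_x_at of SLFN5 and 228617_at and 206133_at of XAF1.

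Technical signals on cocoa arrays 2 and 3 lay outside the range of the controls, and those on cocoa array 1 lay within it. The 18S ribosomal RNA control probe sets read −0.51, 3.31 and 1.40 on cocoa arrays 1 to 3 and between −1.12 and 0.51 on the controls. The 5′ minus 3′ signal of actin and GAPDH, which drops as RNA degrades, was 0.032, −0.26 and −0.053 on cocoa arrays 1 to 3 and between 0.009 and 0.033 on the controls. Adding the 18S signal to the fit left the 8 differences between 0.68 for ISG20 and SAMHD1 and 1.82 for XAF1, and adding the 5′ to 3′ signal left them between 0.62 for ISG20 and 1.84 for XAF1. Without cocoa array 2, which stood apart in both signals, all 8 genes passed, and so did 23 probe sets, now with 1559883_s_at of SAMHD1 (adjusted p = 0.0213) and without 242234_at of XAF1 (0.0675). In that fit 1788 of all genes and 2656 of all probe sets passed. The SLFN12 difference was −0.23 with the 18S covariate (limma adjusted p = 0.172).

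**Figure D4:**
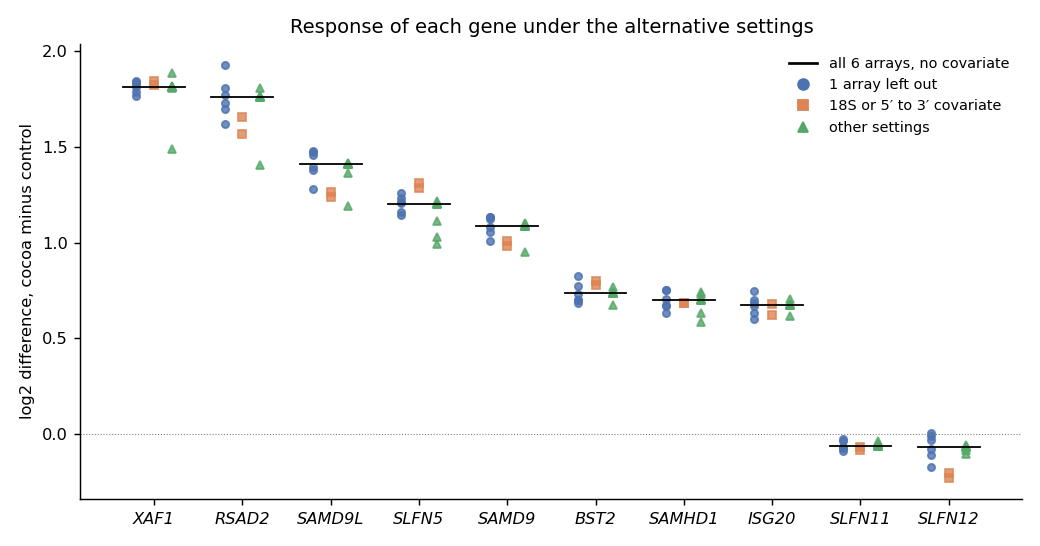
Log2 difference (cocoa minus control, vertical axis) of each restriction factor with all 6 arrays (black line), with 1 array left out (blue), with a technical covariate (orange) and under other settings (green). The 8 genes that rose stay above 0.58 throughout, and SLFN11 and SLFN12 stay near or below 0.

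Genes next to the members were compared with them, taking the nearest 2 protein-coding genes on either side in the RefSeq order. Of 28 such neighbours that are not members, 24 were measured, 2 rose and 3 fell, against 7.36% of all genes higher and 6.12% lower. The median log2 difference over the measured neighbours was 0.028. The 2 that rose were CMPK2, a mitochondrial nucleotide kinase next to RSAD2 (2.26, SE 0.12), and HEPACAM2, a cell adhesion protein next to SAMD9L (1.63, SE 0.079). Those that fell were CDK6, a cell cycle kinase on the other side of SAMD9 (−0.60, SE 0.13, limma adjusted p = 0.0164, but 0.0639 without control array 2, 0.0566 without control array 3, 0.102 at a difference of −0.39 with the 18S covariate and 0.152 without moderated variances, with a difference of −0.38 under the 5′ to 3′ covariate), AEN, an apoptosis-enhancing nuclease next to ISG20 (−0.40, SE 0.066), and PLVAP, an endothelial diaphragm protein near BST2 (−0.28, SE 0.072, limma adjusted p = 0.0328, lost in 8 of 15 alternative fits and kept, of those without 1 array, only without cocoa array 1). In the Schlafen cluster the order was SLFN5, SLFN11, SLFN12 and SLFN13, and SLFN13 had a difference of −0.031 (SE 0.059, limma adjusted p = 0.804), so that SLFN5 was the one member of these 4 that passed.

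**Figure D5:**
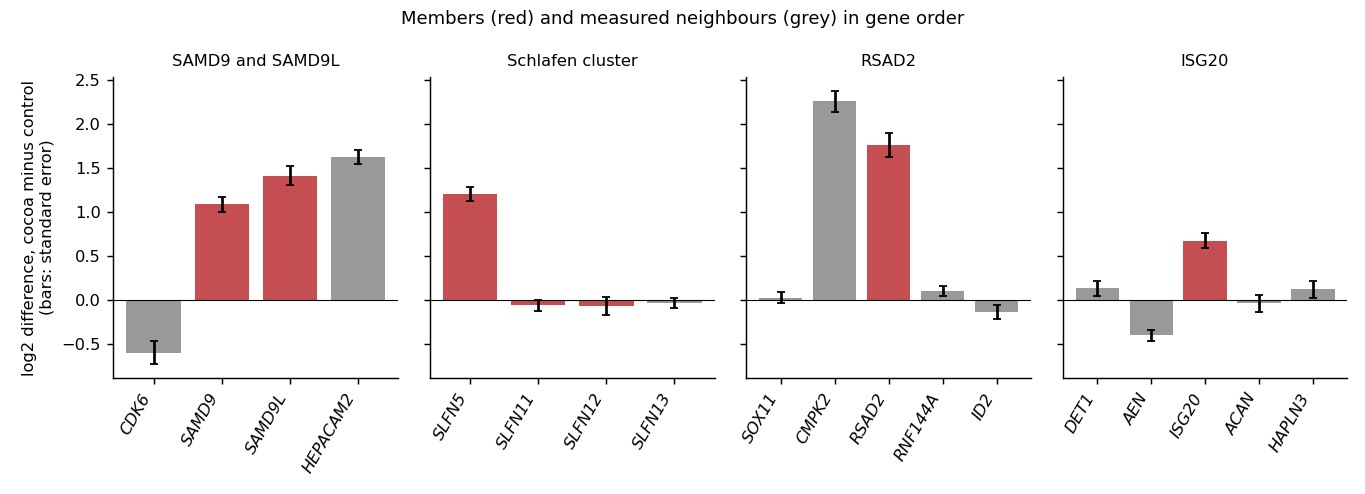
Log2 difference (cocoa minus control, vertical axis, bars for the standard error) of 4 loci in gene order, with members in red and other measured neighbours in grey. SAMD9, SAMD9L and HEPACAM2 stand together above 1, CMPK2 and RSAD2 stand together, and SLFN5 and ISG20 stand alone.

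The interferon pathway was then read from its ligands to its outputs. Of 18 measured interferon genes 1 rose and 17 did not pass, against 7.36% of all genes higher, with a median log2 difference of −0.011. The gene that rose was IFNL2, a type III interferon (0.37, SE 0.10, limma adjusted p = 0.0403), and its call was kept in 6 of 16 alternative fits and, of those without 1 array, only without cocoa array 1 (0.0178 to 0.122), and its difference was 0.25 with the 18S covariate (limma adjusted p = 0.237). IFNB1, a type I interferon made early in virus infection, had a difference of −0.14 (SE 0.13, limma adjusted p = 0.558). IFNL2 has close copies among the type III genes, as the IFNA genes have among each other, so that their probe sets can share signal. Each of the 18 genes rests on 1 probe set. Without levels it cannot be shown whether any of these transcripts was present in the cells.

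Of 17 measured receptor and signalling genes 6 rose, 0 fell and 11 did not pass, with a median of 0.13. Over all genes 7.36% passed as higher and 6.12% as lower. USP18, a protease that limits interferon signalling, rose by 1.30 (SE 0.10). The transcription factors IRF9, IRF7 and IRF1 rose by 1.21 (SE 0.097), 0.92 (SE 0.11) and 0.52 (SE 0.079). IFNLR1 and IL10RB, the 2 chains of the type III receptor, also passed as higher, at 0.30 (SE 0.075, limma adjusted p = 0.0279) and 0.35 (SE 0.080, limma adjusted p = 0.0218). Each kept its call in 8 of 16 alternative fits. Of the fits without 1 array, IFNLR1 kept it only without control array 3 or cocoa array 1 (adjusted p up to 0.123) and IL10RB only without cocoa array 1 or 3 (up to 0.0979). The IFNLR1 value joins 2 probe sets that did not respond alike. Without the suffixed one the IFNLR1 difference was 0.62, so the suffixed one lay below the mean of 0.30. The type I receptor chains IFNAR1 and IFNAR2 had differences of 0.19 and 0.20 (limma adjusted p = 0.132 and 0.0932) and did not pass. Their groups did not overlap, but 15.4% of all genes were likewise higher without overlap (32.5% in either direction).

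Of 23 other restriction factors that were measured, 15 rose, 0 fell and 8 did not pass, against 7.36% of all genes higher, with a median of 0.36. CMPK2, already counted above as a neighbour of RSAD2, is 1 of the 15. The list was drawn up with earlier results of these arrays known, so its count is no independent evidence. TRIM22, an antiviral ubiquitin ligase, rose by 3.95 (SE 0.16), IFIT1, which binds foreign RNA ends, by 2.52 (SE 0.13), IFITM1, which hinders virus entry, by 2.36 (SE 0.18), and MX2, a dynamin-like GTPase, by 2.27 (SE 0.20). Each of these differences was above the 1.81 of XAF1, but each rests on 1 probe set and the XAF1 value is a mean of 3. The XAF1 probe set 228617_at, at 2.89, was above all of them but TRIM22. The 8 that did not pass included 4 of the 5 measured APOBEC3 cytidine deaminases, of which APOBEC3G rose by 0.36 (SE 0.087, limma adjusted p = 0.0262). The APOBEC3G call was kept in 10 of 16 alternative fits and lost without control array 2, cocoa array 2 or cocoa array 3 (adjusted p up to 0.097).

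Relatives of the members by sequence or domain were read against the 13.5% of all genes that passed. Of 14 measured Schlafen and SAM domain genes outside the 10, SAMD12 rose (0.48, SE 0.084), SAMD5 fell (−0.61, SE 0.095) and 12 did not pass, with a median of −0.0097. None of the 7 exonuclease relatives of ISG20 rose and 3 fell, AEN (−0.40), REXO4 (−0.27) and ERI1 (−0.25), against 6.12% of all genes lower. REXO4 kept its call in 9 of 16 alternative fits and, of those without 1 array, only without cocoa array 1 or 2 (limma adjusted p 0.0365 to 0.0843). ERI1 kept its call in 4 of 16 and, of those without 1 array, only without cocoa array 1 (0.0201 to 0.169). Of 11 genes of deoxynucleotide supply and breakdown, the pool on which SAMHD1 acts, 2 rose and 3 fell. TYMS, thymidylate synthase, fell by 0.52 (SE 0.085), NME1, a nucleoside diphosphate kinase, by 0.41 (SE 0.074), and RRM2, the S-phase subunit of ribonucleotide reductase, by 0.28 (SE 0.065). The NME1 call was lost with the 18S covariate (−0.33, limma adjusted p = 0.0562) and without moderated variances (adjusted p = 0.0589). The RRM2 call was lost in 8 of 16 alternative fits, among them those without any 1 control array or cocoa array 3 (limma adjusted p up to 0.0918), and without the probe sets whose names carry a suffix the RRM2 difference was −0.099 (limma adjusted p = 0.502). RRM2B, its p53-inducible counterpart, rose by 0.42 (SE 0.071), and the mitochondrial kinase TK2 also passed as higher at 0.28 (SE 0.076, limma adjusted p = 0.0404). The TK2 call was kept in 6 of 16 alternative fits and, of those without 1 array, only without cocoa array 1 (0.0118 to 0.126). Among 8 measured genes of XIAP and its partners 0 passed in limma. XIAP itself, the target of XAF1, had a difference of 0.16 (SE 0.071, limma adjusted p = 0.174).

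The genes whose values lay closest to SAMD9 over the 6 arrays, by root mean square distance on the log2 scale, were TMC4, a channel-like membrane protein (0.067), NSUN7, a putative RNA methyltransferase (0.074), SP100, a nuclear body protein (0.080), SELENOP, a secreted selenium carrier (0.082), and TCEA3, a transcription elongation factor (0.087). Each of the 5 rose by between 0.99 and 1.16 in the fit of mean values. They were picked for closeness to SAMD9 on these same arrays, so a rise near its 1.09 follows from the choice. The SELENOP call was lost with the median of its probe sets (0.20, limma adjusted p = 0.175) and without suffixed probe sets (0.12, limma adjusted p = 0.464). Among the members the closest pair was BST2 and ISG20 (0.10), followed by SLFN11 and SLFN12 (0.13), while SAMD9 and SAMD9L were 0.17 apart. Such a distance depends on the size of each gene's difference, and shared regulation was not tested.

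Markers of cell type were read against the same 13.5% of all genes. Of 10 colon epithelial markers 0 passed in limma, with differences from −0.083 to 0.23. Of 9 measured markers of blood, endothelial and connective tissue cells 1 rose, CD14, a lipopolysaccharide co-receptor (0.75, SE 0.11, limma adjusted p = 0.00321), and 8 did not pass, among them PTPRC, the pan-leukocyte marker (0.010, limma adjusted p = 0.953). The part of CD14 in the results above was not tested.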

How the data were processed

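Total RNA of 6 HT29 cultures was labelled with biotin and read on Human Genome U133 PLUS 2.0 arrays (Affymetrix), per the labels' protocols. The authors computed the deposited log2 values with RMA, per the submitters' processing notes; the design text mentions GeneSpring GX. Their versions and any filters: not given in the sources used here. Its 54675 probe sets run from −2.42 to 4.02, each with a median of 0 (largest absolute median 5.0e-07), so the authors' values were centred and signal over background is unknown. The log2 base follows from RMA. Of the 54613 probe sets that are no Affymetrix control, 41091 had 1 gene symbol in the platform annotation, 1801 had several, and 11721 had none. By gene identifier 41037 matched RefSeq.

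Genes and probe sets were fitted separately with limma 3.58.1 in R 4.3.3 (lmFit and eBayes, cocoa minus control, all 6 arrays) and Benjamini-Hochberg adjustment at 0.05. Intervals are limma's moderated 95% intervals. Pairs of relatives were compared by exact permutation in scipy 1.17.1. The fit per gene was also run on simulated data with noise drawn independently for each array, so without the technical shifts of cocoa arrays 2 and 3. It recovered 54% of genes changed by 0.5 on the log2 scale, 92% of those changed by 1 and 100% of those changed by 2 or 3 (50 genes each). Of its 187 calls 14 were unchanged genes. Named genes were all members, up to 4 passing genes per list by size, a fixed set (IFNB1, IFNAR1, IFNAR2, IRF9, CMPK2, XIAP and RRM2, with 2 more not analysed here), the 5 genes nearest to SAMD9 and the passing neighbours. IFNLR1, IL10RB, APOBEC3G, SLFN13, TK2 and PTPRC were added after their values were seen. The members and lists were chosen with earlier results of these data known. Pairs of control arrays differed with an SD of 0.175 to 0.215 over probe sets and pairs of cocoa arrays with 0.22 to 0.264, so no array copied another.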

Additional observations from a re-analysis of the deposited data

How the results depend on the processing

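The 8 restriction factors that rose kept direction and call in all 16 alternative fits, with adjusted p up to 0.0449, and SLFN11 and SLFN12 passed in none. Quantile normalisation gave the smallest difference of RSAD2 (1.40), XAF1 (1.49), SAMD9L (1.19) and SAMD9 (0.95). The number of genes that passed was 1103 with the 18S covariate, 1411 with the 5′ to 3′ covariate, 1031 without moderated variances and 1315 to 2881 without 1 array. The number of probe sets was 1314, 1808 and 1004 in the first 3 of these and 1416 to 4602 without 1 array. Of the 27 restriction factor probe sets 7 passed without moderated variances and 18 to 23 without 1 array. The SLFN12 difference, from its 1 probe set 219885_at, ranged from −0.17 to 0.0046 without 1 array, and the highest value was that without cocoa array 1. SLFN11 minus SLFN12 ranged from −0.080 to 0.10 without 1 array (−0.042 without cocoa array 1 and −0.045 without cocoa array 3). PTPRC ranged from −0.037 to 0.042 without 1 array and was −0.014 without suffixed probe sets. Without moderated variances IRF1, SAMD5, SAMD12, TYMS and CD14 also lost their calls. The cause of these shifts was not tested.

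The replicate number as a block gave 1947 genes, 2078 probe sets, 8 members and 21 member probe sets. Deviations from the group means of same-numbered arrays correlated at −0.12, −0.009 and −0.003. Those of differently numbered arrays correlated at between −0.114 and 0.121. With so few arrays per group these values cannot show whether same-numbered arrays were paired. With the relaxed motif 7 promoter windows matched. A filter on dim probe sets was not run, since the table holds no levels, and compression near background cannot be judged.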
